A study of Arabidopsis thaliana with 12 samples.

Results

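The genes described here encode 10 proteins of RNA-directed DNA methylation in Arabidopsis thaliana: NRPD1 (AT1G63020), CLSY1 (AT3G42670), SHH1 (AT1G15215), RDR2 (AT4G11130), DCL3 (AT3G43920), NRPE1 (AT2G40030), DMS3 (AT3G49250), RDM1 (AT3G22680), AGO4 (AT2G27040) and AGO6 (AT2G32940). They were taken by locus identifier from a deposited table of 27655 genes, in which all 10 were found. The table holds messenger RNA levels of whole seedlings in 12 libraries, 3 for each of 4 groups: fve-4 mutants at 27 °C, fve-4 mutants at 21 °C, wild-type Columbia (Col) at 27 °C and Col at 21 °C. All seedlings grew at 21 °C in short days of 8 h light and 16 h dark until day 7. At ZT1 (zeitgeber time, hours after lights came on) they were moved to 27 °C or stayed at 21 °C, with harvest at ZT13, in the dark period. The treatment text also speaks of mannitol, and no library label used here says which seedlings received it. FVE encodes a WD40 protein of histone deacetylase complexes, and its product has been linked to silencing at some loci that small RNAs methylate; how the fve-4 allele changes the gene is not given in the sources used here. The labels do not say whether libraries of a group came from separate cultures, so p-values measure the spread between these libraries. In RNA of whole seedlings, fewer cells of a type and less RNA per cell cannot be told apart.

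In RNA-directed DNA methylation, plant-specific RNA polymerase IV copies silenced DNA into short RNA, RDR2 makes that RNA double-stranded, and DCL3 cuts it into small interfering RNAs. These RNAs are loaded into AGO4 or AGO6 and pair with transcripts that RNA polymerase V makes at the same loci, where DRM2 then methylates cytosines. The pathway silences transposons and repeats and some neighbouring genes in seedlings.

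Library depth, as whole reads recovered from the values, was 11454833 to 14554413. FVE itself had 7.00, 6.82 and 6.64 TPM (transcripts per 1000000) in fve-4 at 27 °C, 4.89, 5.48 and 5.08 TPM in fve-4 at 21 °C, 39.3, 41.6 and 39.9 TPM in Col at 27 °C and 52.7, 51.8 and 50.3 TPM in Col at 21 °C. Every fve-4 library was below every Col library, with a log2 difference of -2.40 ± 0.07 (SE) at 27 °C and -3.10 ± 0.07 at 21 °C. The summed level of 10 genes of dividing cells was 236 to 251 TPM in fve-4 at 27 °C, 234 to 285 in fve-4 at 21 °C, 230 to 248 in Col at 27 °C and 307 to 336 in Col at 21 °C. With the test described below, 3 of these 10 genes were called lower at 27 °C in fve-4 and 9 in Col, and none higher. Of all genes, 14% were called lower in fve-4 and 25.1% in Col. The interaction (change in fve-4 minus change in Col) was called positive for 5 of the 10 and negative for none. Among all genes it was called positive for 14.4% and negative for 18%. In fve-4 against Col, 4 of these 10 markers were called lower and none higher at 21 °C. At 27 °C 4 were called higher and 1 lower. All genes gave 15.3% higher and 8.49% lower at 21 °C, and 20.9% and 17.6% at 27 °C. The 8 root markers summed to 90.3 to 94.6 TPM in fve-4 at 27 °C, 90.0 to 100.3 in fve-4 at 21 °C, 76.2 to 96.0 in Col at 27 °C and 82.0 to 92.6 in Col at 21 °C. The 4 shoot meristem markers summed to 14.2 to 18.2 TPM in fve-4 at 27 °C, 17.5 to 19.4 in fve-4 at 21 °C, 23.9 to 28.1 in Col at 27 °C and 17.5 to 18.8 in Col at 21 °C, and WUS, which defines the stem cell niche, was at 0 in all libraries of the last 3 groups. The 6 markers of green tissue summed to 29811 to 30484 TPM in fve-4 at 27 °C, 36123 to 37031 in fve-4 at 21 °C, 29776 to 33492 in Col at 27 °C and 36624 to 38442 in Col at 21 °C. Taken singly, 2 of the 6 green markers were called higher and 2 lower at 27 °C in each genotype. Their median change was -0.04 in fve-4 and -0.03 in Col, and the largest rise was 2.24 in fve-4 and 2.37 in Col. The share of all genes called higher at 27 °C was 25.2% in fve-4 and 36.7% in Col. The root sums overlapped between all 4 groups. Gene by gene, 5 of the 8 root markers were called higher in fve-4 than in Col at 27 °C and 1 lower. Of all genes, 20.9% were higher and 17.6% lower there. At 21 °C none of the 8 was called in either direction, against 15.3% of all genes higher and 8.49% lower. The part of these markers in the changes of the 10 genes was not tested.

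All 10 genes were expressed in all 12 libraries, and all passed the filter of at least 1 TPM in at least 3 libraries. Recomputed with the exon length of each gene, so that genes can be compared, AGO4 was highest at 34.8 TPM averaged over the 12 libraries (29.5 to 39.1). SHH1 followed at 12.6 TPM (8.49 to 15.2), then CLSY1 at 7.77 (6.83 to 8.80), NRPE1 at 6.73 (5.11 to 7.97), RDR2 at 5.99 (4.46 to 7.40), RDM1 at 5.82 (3.78 to 7.68), DCL3 at 5.13 (4.43 to 6.44) and DMS3 at 4.998 (4.41 to 5.82). NRPD1 at 2.65 (2.098 to 3.40) and AGO6 at 1.73 (1.34 to 2.34) were lowest. AGO4 lay above all others in all libraries, while each gene from SHH1 to DMS3 overlapped its neighbour in this order. NRPD1 lay below DMS3 in range and overlapped AGO6. AGO6 rested on 34 to 58 reads per library and NRPD1 on 79 to 153, against 742 to 1050 for AGO4.

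The places of RDM1 and DMS3 in this order are uncertain. On the opposite strand, AT3G22670 lies wholly within RDM1 and covers 66.0% of its span, and emb1796 (AT3G49240) lies wholly within DMS3 and covers 44.5%. AT3G22670 and emb1796 are listed at 0 in all 12 libraries. So are 420 of the 421 genes of the table that lie wholly within another gene's span (99.8%), against 3414 of the 27234 other genes (12.5%). The sources used here do not say how reads in such overlaps were counted or whether strand was used, so reads of RDM1 or DMS3 and of the gene inside it cannot be told apart, and part of each span may have given no reads. DCL3 overlaps its neighbour AT3G43930 by only 43 bases and SHH1 overlaps CCMH by 23 bases.

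**Figure D1:**
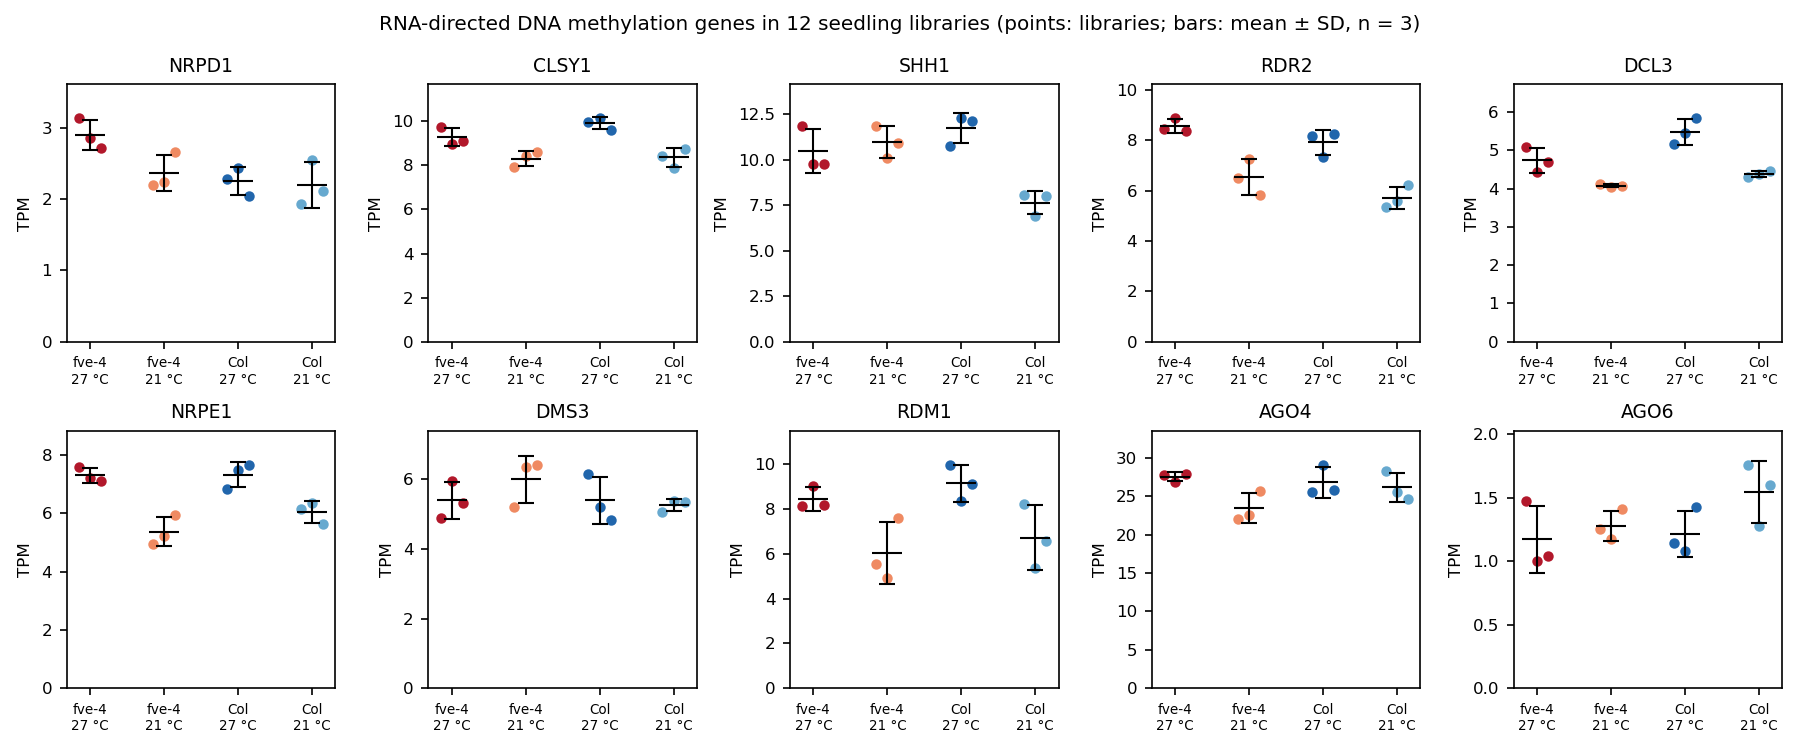
TPM of each of the 10 genes (vertical axis, from 0) in fve-4 at 27 °C, fve-4 at 21 °C, Col at 27 °C and Col at 21 °C; points are libraries and bars are mean ± SD, n = 3. SHH1 averages 7.65 TPM in Col at 21 °C and 10.5 to 11.7 TPM in the other 3 groups, while NRPE1 and RDR2 are higher in every 27 °C library than in every 21 °C library.

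The differences were small, and most pointed to more RNA at 27 °C. Each was tested with limma as a difference of mean log2(TPM + 1), and a gene was called changed at a Benjamini-Hochberg adjusted p under 0.05 over the 19863 genes tested. At 27 °C against 21 °C, 4 of the 10 genes rose in fve-4 (NRPE1, AGO4, RDR2 and RDM1) and none fell. Among all genes tested in fve-4, 25.2% rose and 14% fell. In Col, 6 of the 10 rose (NRPE1, RDR2, DCL3, CLSY1, SHH1 and RDM1) and none fell, against 36.7% rising and 25.1% falling among all genes. The median change of the 10 genes was 0.19 in fve-4, where the median of all genes was 0.07, and 0.23 in Col, where it was 0.08. The lowest change of any member was -0.20, for AGO6 in Col, which was not called. After median-ratio rescaling, which brings the median of all genes to 0.00 in fve-4, 2 members were called higher in fve-4 and 2 in Col. Of the 19863 genes tested, the same fit called 3696 higher and 3760 lower in fve-4. In Col it called 6048 higher and 6067 lower. Over all genes in fve-4, 64.2% of the calls were higher at 27 °C, or 49.6% after the same rescaling, and in Col 59.4%, or 49.9% after it.

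Among the 10, only SHH1 had a called difference in warm response between fve-4 and Col, in the negative direction, where 18% of all genes had a called negative interaction (change in fve-4 minus change in Col) and 14.4% a positive one. At 21 °C, 1 of the 10 was higher in fve-4 than in Col, again SHH1, and none was lower. The shares of all genes were 15.3% higher and 8.49% lower, and the share of calls that were higher was 64.3%, or 47.4% after median-ratio rescaling. At 27 °C, limma called 0 of the 10 in fve-4 against Col, where 20.9% of all genes were higher and 17.6% lower; 54.4% of the calls were higher, or 48.1% after median-ratio rescaling. None of the 10 reached an unadjusted p of 0.05 there either. With limma-voom on the recovered reads DCL3 was called lower in fve-4 at 27 °C, as it was after quantile normalization, and with a constant variance prior DCL3 was called lower and NRPD1 higher. The count of 1 at 21 °C became 3 with limma-voom, which also called NRPE1 and AGO4 lower in fve-4 (adjusted p = 0.0484 and 0.0219).

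**Figure D2:**
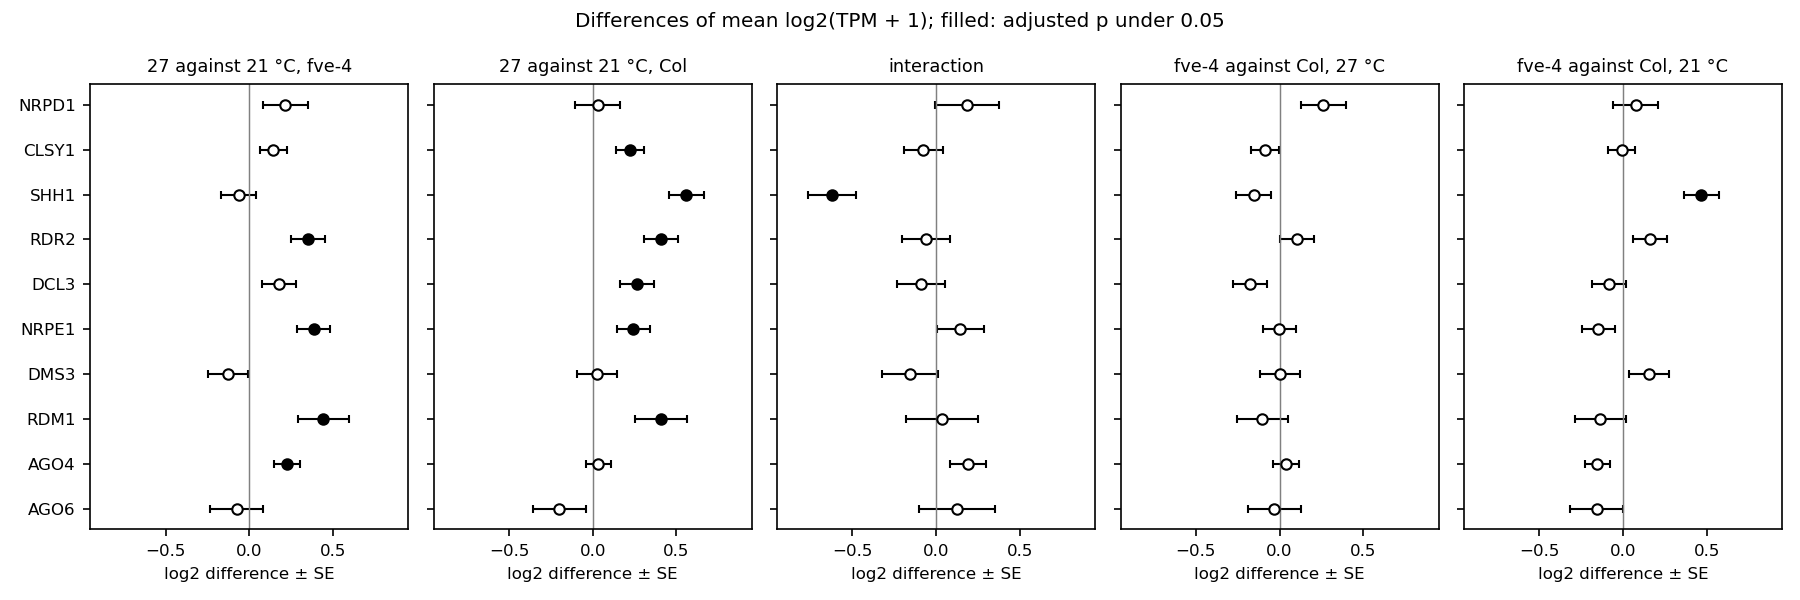
Differences of mean log2(TPM + 1) with SE for the 10 genes (rows) in each of the 5 comparisons (panels); a filled point has an adjusted p under 0.05. Filled points lie to the right of 0 at 27 against 21 °C, 4 in fve-4 and 6 in Col; SHH1 is the filled point of the interaction (-0.62) and of fve-4 against Col at 21 °C (0.47).

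SHH1 showed the largest difference of the 10 genes. Its protein reads histone H3 tails at silenced loci and helps to bring polymerase IV there. SHH1 had 11.9, 9.74 and 9.78 TPM in fve-4 at 27 °C, 11.9, 10.11 and 10.9 TPM in fve-4 at 21 °C, 10.8, 12.3 and 12.1 TPM in Col at 27 °C, and 8.05, 6.89 and 8.00 TPM in Col at 21 °C. Only the 3 Col libraries at 21 °C stood apart: they were below all 9 others, which overlapped. The change at 27 °C was -0.06 ± 0.10 in fve-4 (adjusted p = 0.662), and SHH1 rose by 0.56 ± 0.10 in Col (adjusted p = 0.000333). The interaction was -0.62 ± 0.15 (limma, adjusted p = 0.00554). SHH1 was higher in fve-4 than in Col by 0.47 ± 0.10 at 21 °C (adjusted p = 0.00564), and the difference at 27 °C was -0.15 ± 0.10 (adjusted p = 0.256). The Col rise, the interaction and the difference at 21 °C were called in all 23 alternatives that kept the 0.05 threshold, with adjusted p up to 0.0159 for the interaction. These 3 results share the Col libraries at 21 °C and are not independent of each other. They rest on 85 to 151 reads per library. CCMH, which meets the end of SHH1 and encodes a protein of mitochondrial cytochrome c maturation, was looked at after these values were seen. It had 18.3, 18.4 and 16.3 TPM in fve-4 at 21 °C and 14.2, 11.1 and 12.8 TPM in Col at 21 °C, a difference of 0.45 ± 0.13 (adjusted p = 0.0230) that was not called without Col 21 °C library 2 or 3 or fve-4 21 °C library 1 or 2 (adjusted p up to 0.0938). CCMH changed by 0.09 ± 0.13 with warmth in Col (adjusted p = 0.547), and its interaction was -0.15 ± 0.18 (adjusted p = 0.559).

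The promoter of SHH1 is shown because SHH1 was the only member with a called interaction. The window is the 250 bases before the annotated gene start, read from the RefSeq genome TAIR10.1 on the plus strand at chr1:5237794-5238043, and it overlaps no other protein-coding gene. Capitals mark a match to any of 4 plant motifs chosen after the expression values were known and searched on both strands.
SHH1: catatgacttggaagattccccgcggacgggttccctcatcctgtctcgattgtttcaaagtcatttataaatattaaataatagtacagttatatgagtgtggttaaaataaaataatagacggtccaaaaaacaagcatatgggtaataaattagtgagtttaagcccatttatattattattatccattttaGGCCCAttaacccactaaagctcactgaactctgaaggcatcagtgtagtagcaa
The motifs were the G-box CACGTG, present in 6.49% of 27443 promoter windows of this length, the evening element AAATATCT in 4.79%, the telobox AAACCCTA in 4.49% and the site II element TGGGCC in 13.7%. SHH1 held 1 match, a site II element in the reverse orientation that begins 55 bases before the start. Site II also occurred in the windows of DCL3 and DMS3, the evening element in that of CLSY1 and the telobox in that of RDM1.

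NRPD1 and CLSY1, whose proteins also act in polymerase IV transcription, had small changes in RNA, called only for CLSY1 with warmth in Col. NRPD1, the largest subunit of polymerase IV, had 3.14, 2.85 and 2.72 TPM in fve-4 at 27 °C, 2.20, 2.23 and 2.66 TPM in fve-4 at 21 °C, 2.29, 2.44 and 2.05 TPM in Col at 27 °C and 1.93, 2.55 and 2.11 TPM in Col at 21 °C. The fve-4 libraries at 27 °C were above all 9 others, but the difference from Col at 27 °C was 0.26 ± 0.13 with an adjusted p of 0.142, and the change with warmth was 0.21 ± 0.13 in fve-4 (adjusted p = 0.226) and 0.03 ± 0.13 in Col (adjusted p = 0.863). CLSY1, a chromatin remodeller-like protein that steers polymerase IV to its loci, had 9.76, 8.99 and 9.09 TPM in fve-4 at 27 °C, 7.94, 8.40 and 8.58 TPM in fve-4 at 21 °C, 9.96, 10.14 and 9.62 TPM in Col at 27 °C and 8.44, 7.88 and 8.76 TPM in Col at 21 °C. Within each genotype, every 27 °C library of CLSY1 was above every 21 °C library. The change was 0.14 ± 0.08 in fve-4 (adjusted p = 0.189) and 0.22 ± 0.08 in Col (adjusted p = 0.0316), and the interaction was -0.08 ± 0.12 (adjusted p = 0.648), so a difference between the genotypes was not shown. The Col call of CLSY1 was lost when Col 21 °C library 1 or 2 or Col 27 °C library 1 or 2 was left out (adjusted p 0.0572 to 0.106), and in 4 other alternatives, rescaling and limma-voom among them (0.0663 to 0.204).

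RDR2 and DCL3 act next, on the RNA that polymerase IV makes. RDR2 had 8.44, 8.87 and 8.35 TPM in fve-4 at 27 °C, 6.49, 7.26 and 5.83 TPM in fve-4 at 21 °C, 8.15, 7.34 and 8.22 TPM in Col at 27 °C and 5.36, 5.56 and 6.20 TPM in Col at 21 °C. In both genotypes the 27 °C libraries lay above the 21 °C libraries without overlap. RDR2 rose by 0.35 ± 0.10 in fve-4 (adjusted p = 0.0146) and by 0.41 ± 0.10 in Col (adjusted p = 0.00307). The Col rise of RDR2 was called in all 23 alternatives at the 0.05 threshold, and that in fve-4 in 20; it was lost without fve-4 21 °C library 3 or fve-4 27 °C library 2 (adjusted p 0.0529 to 0.0649) and with quantile normalization (0.0517). DCL3 had 5.07, 4.44 and 4.70 TPM in fve-4 at 27 °C, 4.13, 4.04 and 4.06 TPM in fve-4 at 21 °C, 5.15, 5.44 and 5.84 TPM in Col at 27 °C and 4.30, 4.38 and 4.47 TPM in Col at 21 °C. The 21 °C libraries of DCL3 were close together and lay below the 27 °C libraries of the same genotype. DCL3 rose by 0.27 ± 0.10 in Col (adjusted p = 0.0348), and its change in fve-4 was 0.18 ± 0.10 (adjusted p = 0.191), with an interaction of -0.09 ± 0.14 (adjusted p = 0.666). The Col call of DCL3 was lost without any 1 of the 3 Col 21 °C libraries or without Col 27 °C library 2 or 3 (adjusted p 0.0609 to 0.115), and in 4 other alternatives, rescaling and limma-voom among them (0.0563 to 0.137).

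On the polymerase V side, NRPE1 rose in both genotypes. NRPE1, the largest subunit, had 7.60, 7.23 and 7.10 TPM in fve-4 at 27 °C, 4.95, 5.24 and 5.93 TPM in fve-4 at 21 °C, 6.84, 7.48 and 7.68 TPM in Col at 27 °C and 6.17, 6.35 and 5.64 TPM in Col at 21 °C. All 6 warm libraries exceeded all 6 libraries at 21 °C. The rise was 0.38 ± 0.10 in fve-4 (adjusted p = 0.00725), called in all 23 alternatives at the 0.05 threshold, and 0.24 ± 0.10 in Col (adjusted p = 0.0480), called in 8 of them. The Col call of NRPE1 was lost without any 1 of the 3 Col 21 °C libraries, Col 27 °C library 2 or 3, fve-4 21 °C library 2 or any 1 of the 3 fve-4 27 °C libraries (adjusted p 0.0558 to 0.149), with the replicate number as a block (0.0639), and in 5 other alternatives, rescaling and limma-voom among them (up to 0.184). The interaction of NRPE1 was 0.14 ± 0.14 (adjusted p = 0.465).

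DMS3 and RDM1 form, with DRD1, the complex that helps polymerase V to engage chromatin. DMS3 had 4.89, 5.95 and 5.32 TPM in fve-4 at 27 °C, 5.20, 6.35 and 6.41 TPM in fve-4 at 21 °C, 6.13, 5.19 and 4.84 TPM in Col at 27 °C and 5.06, 5.36 and 5.33 TPM in Col at 21 °C. These ranges overlapped, and the change of DMS3 with warmth was -0.13 ± 0.12 in fve-4 (adjusted p = 0.417) and 0.03 ± 0.12 in Col (adjusted p = 0.864). RDM1 had 8.11, 9.05 and 8.16 TPM in fve-4 at 27 °C, 5.56, 4.93 and 7.61 TPM in fve-4 at 21 °C, 9.98, 8.35 and 9.12 TPM in Col at 27 °C and 8.24, 5.38 and 6.55 TPM in Col at 21 °C. The 21 °C libraries of RDM1 spread widely but stayed below the 27 °C libraries of their genotype. RDM1 rose by 0.44 ± 0.15 in fve-4 (adjusted p = 0.0349) and by 0.41 ± 0.15 in Col (adjusted p = 0.0326), with the overlap described above. The fve-4 call of RDM1 was lost without fve-4 21 °C library 1 or 2 or any 1 of the 3 fve-4 27 °C libraries (adjusted p 0.0556 to 0.141), and the Col call without Col 21 °C library 2 or 3 or Col 27 °C library 1 or 3 (0.0606 to 0.149). Each was also lost with no filter and with median-ratio or quantile scaling (0.0534 to 0.0751 in fve-4 and 0.0503 to 0.0980 in Col).

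The argonautes that carry the small RNAs differed in level by more than in response. AGO4 had 27.8, 26.9 and 27.9 TPM in fve-4 at 27 °C, 22.0, 22.6 and 25.7 TPM in fve-4 at 21 °C, 25.5, 29.1 and 25.8 TPM in Col at 27 °C and 28.3, 25.5 and 24.7 TPM in Col at 21 °C. In fve-4 the 27 °C libraries lay above the 21 °C libraries, and in Col the 2 ranges overlapped. AGO4 rose by 0.23 ± 0.08 in fve-4 (adjusted p = 0.0328), and its change in Col was 0.03 ± 0.08 (adjusted p = 0.719). The interaction, 0.19 ± 0.11, had an adjusted p of 0.2002, so a difference between the genotypes was not shown. The fve-4 call of AGO4 was lost without fve-4 21 °C library 1 or 2 or any 1 of the 3 fve-4 27 °C libraries (adjusted p 0.0558 to 0.113), with the replicate number as a block (0.0504) and with median-ratio rescaling, quantile normalization or limma-voom (up to 0.171). AGO6 had 1.47, 1.01 and 1.04 TPM in fve-4 at 27 °C, 1.25, 1.18 and 1.41 TPM in fve-4 at 21 °C, 1.14, 1.08 and 1.42 TPM in Col at 27 °C and 1.76, 1.28 and 1.60 TPM in Col at 21 °C. The ranges of AGO6 overlapped. Its change with warmth was -0.08 ± 0.16 in fve-4 (adjusted p = 0.743) and -0.20 ± 0.16 in Col (adjusted p = 0.294).

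Ratios between members within a library do not depend on scaling, and 5 of them are given as descriptions. They are by gene span unless exon lengths are named, and exon lengths shift each ratio by the same amount in every library. The ratios are therefore compared between groups only, and do not show which gene is higher. How often ratios of other gene pairs separate the genotypes was not computed, so ranges without overlap are a description and no test. None of the genes in these ratios was called between fve-4 and Col at either temperature by limma on log2(TPM + 1). With exon lengths, the mean log2 ratio of DCL3 to RDR2 at 27 °C was -0.46 in fve-4 and -0.13 in Col. At 21 °C it was -0.28 in fve-4 and 0.02 in Col. The log2 ratio of NRPE1 to NRPD1, by gene span, was 1.34 ± 0.06 in fve-4 at 27 °C and 1.70 ± 0.18 in Col at 27 °C, and 1.19 ± 0.04 in fve-4 at 21 °C and 1.47 ± 0.19 in Col at 21 °C (SD, n = 3). At each temperature its range in fve-4 lay below that in Col. The log2 ratio of DCL3 to RDR2 was -0.85 ± 0.13 in fve-4 at 27 °C and -0.53 ± 0.12 in Col at 27 °C, without overlap, and -0.67 ± 0.16 in fve-4 at 21 °C and -0.38 ± 0.08 in Col at 21 °C, also without overlap. That of AGO6 to AGO4 was -4.57 ± 0.29 in fve-4 and -4.47 ± 0.29 in Col at 27 °C, and -4.20 ± 0.07 in fve-4 and -4.09 ± 0.20 in Col at 21 °C, with the genotypes overlapping at each temperature. The genotypes also overlapped at each temperature in the ratio of RDR2 to NRPD1, which was 1.56 ± 0.12 in fve-4 and 1.81 ± 0.21 in Col at 27 °C, and 1.46 ± 0.29 in fve-4 and 1.38 ± 0.23 in Col at 21 °C. The same held for DMS3 to RDM1, at -0.65 ± 0.07 in fve-4 and -0.77 ± 0.13 in Col at 27 °C, and 0.01 ± 0.32 in fve-4 and -0.33 ± 0.35 in Col at 21 °C, with the overlaps of both genes described above.

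Of 34 further genes listed, 31 passed the filter, and CLSY3, AGO9 and DRM1 did not. In fve-4, 14 of the 31 rose at 27 °C and none fell, with a median change of 0.20, against 0.19 for the 10 members; 25.2% of all genes rose. In Col, 19 rose and none fell, with a median of 0.44, against 0.23 for the 10 members; 36.7% of all genes rose. The difference between these 31 genes and the 10 members was not tested. After median-ratio rescaling 13 of the 31 were called higher in fve-4 and none lower, and in Col 17 were called higher and 2 lower. Of all 19863 genes, 3696 were then called higher and 3760 lower in fve-4, and 6048 higher and 6067 lower in Col. DRD1, the remodeller that completes the complex of DMS3 and RDM1, rose by 0.74 ± 0.08 in fve-4 (adjusted p = 1.53e-05) and by 0.93 ± 0.08 in Col (adjusted p = 4.92e-07). FDM1 and FDM2, closely related RNA-binding proteins between which reads may have been divided, rose by 0.57 ± 0.07 and 0.69 ± 0.08 in fve-4 and by 1.20 ± 0.07 and 1.08 ± 0.08 in Col. RDR6, which makes double-stranded RNA outside the polymerase IV route, rose by 0.28 ± 0.07 in fve-4 and 0.58 ± 0.07 in Col, and NERD, a GW-repeat protein that binds an argonaute, by 0.34 ± 0.06 in fve-4 and 0.39 ± 0.06 in Col. DRM2, the methyltransferase at the end of the pathway, rose by 0.38 ± 0.11 in fve-4 (adjusted p = 0.0130) and 0.73 ± 0.11 in Col (adjusted p = 4.54e-05), and the fve-4 call was lost with 1 library left out (fve-4 27 °C library 3, adjusted p = 0.0532). NRPD2, the second subunit shared by polymerases IV and V, rose by 0.35 ± 0.07 in fve-4 and 0.49 ± 0.07 in Col. The CLSY1 relatives CLSY2 and CLSY4 did not pass the test, with changes of 0.39 ± 0.17 and -0.11 ± 0.19 in fve-4 (adjusted p = 0.0897 and 0.698) and 0.33 ± 0.17 and -0.11 ± 0.19 in Col (0.115 and 0.657). Under the filter, CLSY3 was at 0.499 to 1.02 TPM and AGO9, a relative of AGO4, at 0.260 to 1.32 TPM over the 12 libraries.

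Of the 31 genes, 6 had a called interaction, all negative. As 18% of all genes had a called negative one and 14.4% a positive one, the negative count is near the share of all genes. Called or not, 23 of the 31 interactions were negative and 8 positive, with a median of -0.14 against -0.02 over all genes, a difference not tested. FDM1 had 38.3, 46.3 and 43.4 TPM in fve-4 at 27 °C, 27.1, 30.1 and 28.0 TPM in fve-4 at 21 °C, 47.9, 52.1 and 50.2 TPM in Col at 27 °C and 21.6, 19.9 and 21.9 TPM in Col at 21 °C. Its 4 groups did not overlap, fve-4 lying between the Col temperatures. The 6 genes included FDM1 (-0.64 ± 0.10, adjusted p = 0.000507), DCL2 (-0.44 ± 0.12, 0.0134), AGO3 (-0.83 ± 0.23, 0.0160) and FDM2 (-0.38 ± 0.11, 0.0191). At 21 °C, FDM1, FDM2 and AGO3 were higher in fve-4 than in Col, by 0.41 ± 0.07, 0.38 ± 0.08 and 0.71 ± 0.17, and none of the 31 was lower, where 15.3% of all genes were higher and 8.49% lower. AGO3 lost that call with quantile normalization (adjusted p = 0.0536). At 27 °C, 6 of the 31 were called lower in fve-4 and none higher, where 17.6% of all genes were lower and 20.9% higher. In this fit the count of lower genes is near the share of all genes. The 4 with the smallest adjusted p were DRD1 (-0.38 ± 0.08, adjusted p = 0.00346), RDR6 (-0.25 ± 0.07, 0.00940), KTF1 (-0.34 ± 0.09, 0.0102) and FDM1 (-0.23 ± 0.07, 0.0257). FDM1 lost that call without Col 27 °C library 2 or 3 or fve-4 27 °C library 1 (adjusted p 0.0600 to 0.119), and the count of 6 became 3 without Col 27 °C library 2 or 3. With limma-voom 11 of the 31 were called lower at 27 °C, against 4335 of 19762 genes. Called or not, 24 of the 31 were lower in fve-4 at 27 °C and 7 higher, with a median of -0.12 against 0.02 over all genes. That difference was not tested. SHH1 itself gave -0.15 ± 0.10 in fve-4 against Col at 27 °C.

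**Figure D3:**
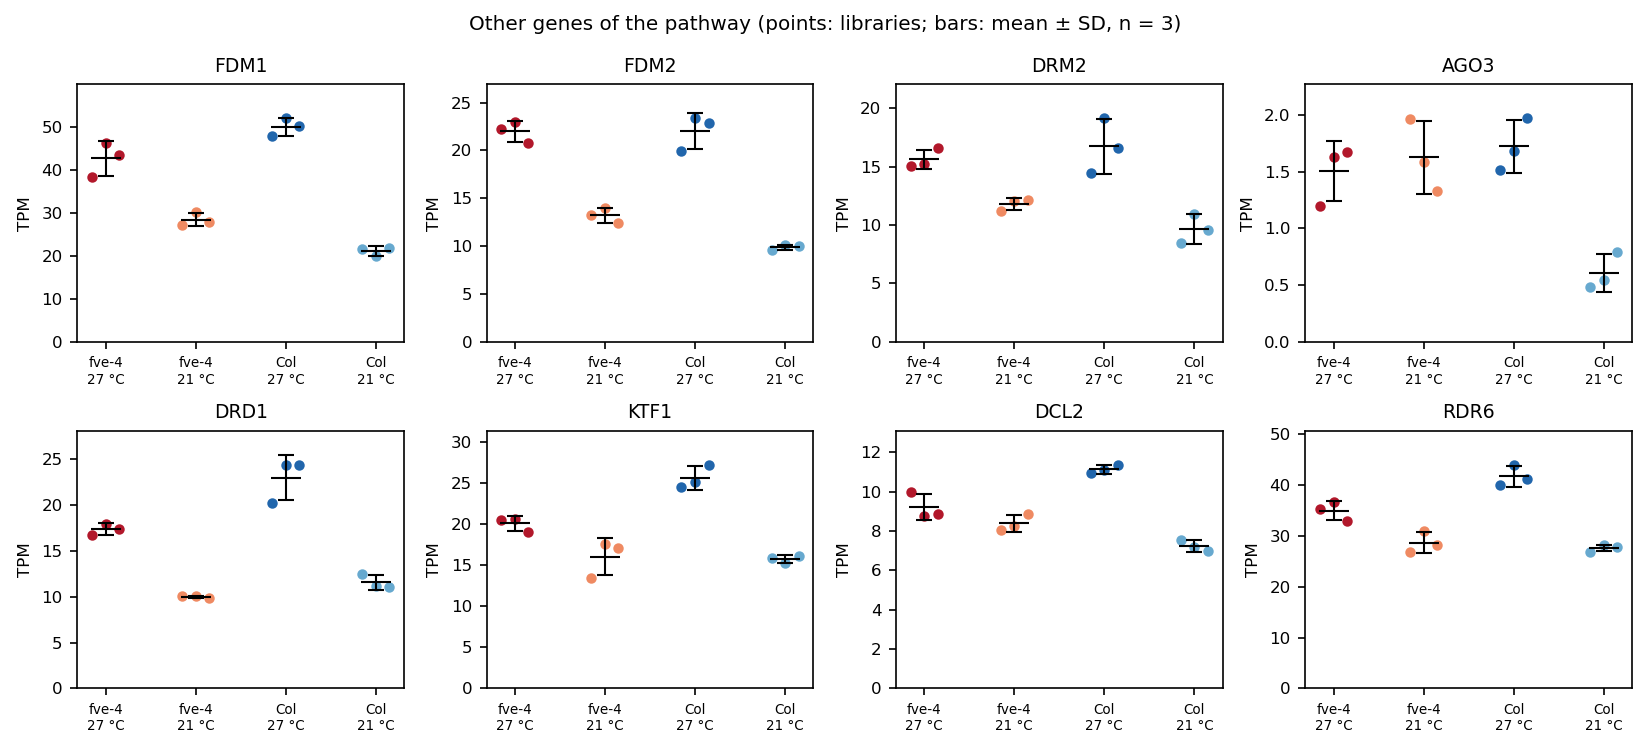
TPM of 8 further genes of the pathway (vertical axis, from 0) in fve-4 at 27 °C, fve-4 at 21 °C, Col at 27 °C and Col at 21 °C; points are libraries and bars are mean ± SD, n = 3. Every gene drawn except DRD1 has its lowest mean in Col at 21 °C, though KTF1 and RDR6 overlap there with fve-4 at 21 °C. The genes drawn include all 6 further genes with a called negative interaction, so this pattern depends on their choice and does not describe the 31. NERD, not drawn, is lowest in fve-4 at 21 °C (18.2 TPM, against 19.3 TPM in Col at 21 °C). FDM1 averages 21.2 TPM in Col at 21 °C against 28.4 TPM in fve-4 at 21 °C.

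**Figure D4:**
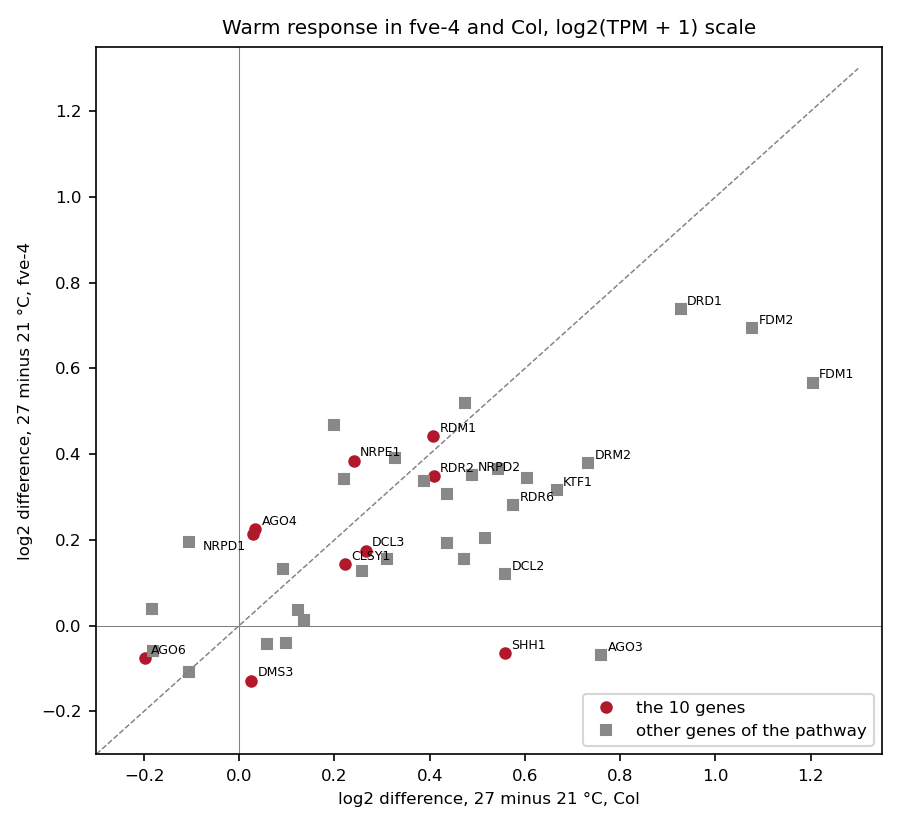
Change at 27 against 21 °C in fve-4 (vertical axis) and in Col (horizontal axis) for the 10 genes and the 31 further genes tested, as differences of mean log2(TPM + 1); the dashed line marks equal changes. SHH1 (-0.06 in fve-4, 0.56 in Col) and AGO3 lie near 0 on the vertical axis, and FDM1 and FDM2 lie below the dashed line.

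Genes known to be silenced or tuned by this pathway moved in several directions. QQS, a starch-related gene whose expression varies with its methylation, had 45.9, 46.3 and 50.3 TPM in fve-4 at 27 °C and 4.38, 4.60 and 5.77 TPM in Col at 27 °C, with 35.9, 41.9 and 35.6 TPM in fve-4 at 21 °C and 3.24, 3.49 and 2.79 TPM in Col at 21 °C. It was higher in fve-4 by 3.04 ± 0.10 at 27 °C and 3.22 ± 0.10 at 21 °C. ROS1, a DNA demethylase whose expression falls when the pathway is impaired, had 14.2, 14.98 and 14.99 TPM in fve-4 at 27 °C, 7.55, 9.02 and 8.51 TPM in fve-4 at 21 °C, 14.6, 16.3 and 15.2 TPM in Col at 27 °C and 12.96, 12.2 and 11.37 TPM in Col at 21 °C. It was lower in fve-4 at 21 °C (-0.50 ± 0.08, adjusted p = 0.00116), and the difference at 27 °C was -0.06 ± 0.08 (adjusted p = 0.623). EPF2, which encodes a peptide that limits stomata, was higher in fve-4 at 27 °C (0.73 ± 0.24, adjusted p = 0.0291) and lower at 21 °C (-0.82 ± 0.24, adjusted p = 0.0261), and CML41, a calmodulin-like gene, was higher at 27 °C (0.97 ± 0.32, adjusted p = 0.0292). The EPF2 call at 27 °C was lost without Col 27 °C library 1 or 3 or fve-4 27 °C library 2 or 3 (adjusted p 0.0559 to 0.117), and that at 21 °C without Col 21 °C library 2 or fve-4 21 °C library 1 or 2 (0.0685 to 0.111). The CML41 call was lost without Col 27 °C library 1 or 3 or any 1 of the 3 fve-4 27 °C libraries (0.0541 to 0.107). FWA and SDC, 2 genes the pathway keeps silent, did not pass the filter. FWA had 22, 8 and 21 reads in fve-4 at 27 °C and 2, 2 and 13 reads in Col at 27 °C, with 26, 34 and 18 reads in fve-4 at 21 °C and 1, 6 and 4 reads in Col at 21 °C. Fitted with no filter, FWA was higher in fve-4 at 21 °C (adjusted p = 0.00878) and the difference at 27 °C had an adjusted p of 0.109. SDC had 1, 7 and 6 reads in fve-4 at 27 °C and 0, 2 and 0 reads in Col at 27 °C, with 2, 0 and 1 reads in fve-4 at 21 °C and 1, 0 and 0 reads in Col at 21 °C. In the same unfiltered fit SDC was called higher in fve-4 at 27 °C (0.39 ± 0.13, adjusted p = 0.0438), on these few reads, and its adjusted p at 21 °C was 0.769. SDC shares 67.8% of its span with AT2G17695 on the opposite strand, so their reads cannot be told apart there. No methylation was measured here.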

How the data were processed

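Messenger RNA of whole seedlings was sequenced in 12 libraries, prepared with a NEBNext Ultra kit per the labels' protocols. The authors deposited 1 table of TPM values (transcripts per 1000000), each column of which sums to 1000000. The tools fastp 0.20.1, HISAT2 2.1.10 and DESeq2 1.26.0 and the build TAIR10 were used, per the submitters' processing notes; their roles, the read counter and the strand setting are not given in the sources used here. The values equal whole reads divided by gene span for 23661 of 23666 expressed genes with a span in the RefSeq annotation of TAIR10.1 (99.98%, tolerance 0.01 reads), which also supplied exon lengths, overlaps and promoters. The median gene span was 1.31 times the exon length, so levels are compared between genes only on exon lengths. The ratios between members are by gene span unless exon lengths are named, and are compared only between groups.

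Group differences of log2(TPM + 1) came from limma 3.58.1 (R 4.3.3), in 1 model of the 4 group means (8 residual degrees of freedom), on 19863 genes with at least 1 TPM in at least 3 libraries. Tests were two-sided, with Benjamini-Hochberg adjustment within each of the 5 contrasts. A fold change on this scale understates changes of low genes. The fit was tested on simulated data. The members, gene lists and tests were chosen with earlier results of these data known. All 10 members, FVE, NRPD2, CLSY2, CLSY3, CLSY4, AGO9, DRM2, up to 4 called further genes per contrast (smallest adjusted p) and the silenced targets above the filter are named. FWA, SDC and CCMH are named outside that rule. Reads without molecular identifiers are not independent molecules. The 24 alternatives changed the pseudocount (0.1 or 5), filter, scaling, variance prior, length, threshold (0.01), model or libraries used.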

Additional observations from a re-analysis of the deposited data

Results flagged for a closer look

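The warm response differed between fve-4 and Col, by limma's interaction term, for 10 of the genes described (log2 change in fve-4 minus change in Col). These were 1 of the 10 members, 6 of the 31 further genes tested, 2 of the 4 targets tested, and FVE. Of all genes tested, 18% had a called negative interaction and 14.4% a positive one. Among the 10 pathway members this was SHH1 (-0.62). Among further pathway genes it was AGO3 (-0.83), FDM1 (-0.64), DCL2 (-0.44), FDM2 (-0.38), KTF1 (-0.35) and RDR6 (-0.30), all with the smaller rise or no called change in fve-4. AGO3 rests on 12 to 55 reads per library. KTF1 was called in 6 of 23 alternatives at the 0.05 threshold, so its interaction is the least stable of these. RDR6 lost the call without Col 21 °C library 1, fve-4 21 °C library 2, Col 27 °C library 2 or fve-4 27 °C library 3 (adjusted p 0.0573 to 0.0670). DCL2 shares 847 bases with AT3G03305 on its own strand, so their reads cannot be told apart there. Interactions in the positive direction were found for the targets EPF2 (1.55) and ROS1 (0.44), and for FVE itself (0.70), which rose by 0.35 ± 0.07 in fve-4 and changed by -0.35 ± 0.07 in Col. No cause of these differences was tested.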

How the results depend on the processing

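At 27 against 21 °C in fve-4, the count of 4 members became 2 with median-ratio rescaling, 1 with quantile normalization and 1 at an adjusted p under 0.01. It became 1 to 4 with 1 library left out. Among the 19863 genes tested, 7779 calls in fve-4 became 7456, 7626 and 5240 in these 3 settings, and 6306 to 8085 with 1 library left out. In Col the count of 6 members became 2 in each of these 3 settings, 3 with the contrast's groups alone and 3 with limma-voom. It became 2 to 6 with 1 library left out. For all genes in Col, 12287 calls became 12115, 11860 and 9963 in the 3 settings and 11911 with the contrast's groups alone. They became 12073 of 19762 with limma-voom and 11298 to 12310 with 1 library left out. At 21 °C, fve-4 against Col, 1 member became 3 with limma-voom. At 27 °C 0 became 1 after quantile normalization, 2 with a constant variance prior and 1 with limma-voom. Calls among all genes went from 4726 to 4990 at 21 °C with limma-voom. At 27 °C they went from 7648 to 7444, 7339 and 8074 in the 3 settings just named. Among the 31 further genes, 14 in fve-4 became 9 at an adjusted p under 0.01. At that threshold the 6 interactions became 1, and the 6 at 27 °C became 2. In fve-4 against Col at 27 °C limma-voom called 11 of the 31, all lower in fve-4, and leaving out 1 library gave 3 to 7. There limma-voom called 4335 of 19762 genes lower and 3739 higher. Over all genes, the 0.01 threshold left 3799 interactions, 2336 differences at 21 °C and 4656 at 27 °C. Same-numbered libraries did not pair: of 18 correlations of deviations (-0.135 to 0.187), 2 exceeded 0.1. With a replicate block, members called were 3 in fve-4, 5 in Col, 1 in the interaction, 1 at 21 °C and 0 at 27 °C. The same fit called 7697, 12249, 6353, 4662 and 7501 of all genes in these comparisons. Of 1190 member values recomputed, 37 changed sign, all called in neither fit and at most 0.155 in size, and were not counted as reversals; 66 lost and 7 gained a call. NRPD1, AGO6, AGO3, MORC7, CLSY2, CLSY4 and CML41 had no value under the filter of 5 TPM.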
